A study of Mus musculus with 4 samples.

Results

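The Gpr39 to Mgat5 domain is a stretch of mouse chromosome 1 (mm10) in which H3K27me2 peaks of the paternal genome lie over or near the genes Gpr39, Lypd1, Nckap5, Mgat5, Tmem163, Acmsd and Ccnt2. Its members are the peaks whose gene identifier in the 4 deposited zygote peak lists belongs to 1 of these 7 genes. The genes were chosen on the dense and strong paternal peaks of the same lists, so the paternal peak numbers, lengths and folds below are a description, and no test was made of them. The members are 191 of 56036 peaks in all, and the genes are 7 of 21631 protein-coding genes. In the Ezh2m+/p+ zygotes 79 of 17863 paternal and 3 of 5744 maternal peaks were members. In the Ezh2m-/p+ zygotes these were 97 of 22823 paternal and 12 of 9606 maternal peaks.

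The lists came from ultra-low-input native ChIP-seq (ULI-NChIP-seq), in which chromatin of few cells is cut by MNase and the nucleosomes bound by an antibody are sequenced. The zygotes were at the late pronuclear stage PN5, with C57BL/6J mothers and PWK/PhJ fathers joined by in vitro fertilization, so that reads over a variant between the strains could be assigned to the maternal or the paternal genome. The eggs of both groups came from females with floxed Ezh2 alleles (Ezh2 fl/fl). For the Ezh2m-/p+ group the females also carried Gdf9-Cre, in which the oocyte-specific Gdf9 promoter drives the Cre recombinase that deletes the floxed exon. The paternal Ezh2 allele was intact in both groups. Each genotype had 1 H3K27me2 library and 1 input library from pooled zygotes, so no difference between the genotypes has a replicate check and none was tested. The lists are named as they are labelled, they hold no reads over the deleted exon, and every direction between the genotypes given here rests on those labels.

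H3K27me2 is the dimethylated form of lysine 27 of histone H3. It is made by Polycomb repressive complex 2 (PRC2), whose catalytic subunit is EZH1 or EZH2, and it can also be an intermediate on the way to H3K27me3. After fertilization the sperm genome exchanges its protamines for histones supplied by the egg, so that histone marks are placed on paternal chromatin anew. Among the genes of the domain, Gpr39 encodes a zinc-sensing G protein-coupled receptor of the ghrelin receptor family. Lypd1 encodes a Ly6-type prototoxin that acts on nicotinic acetylcholine receptors. Mgat5 encodes the glycosyltransferase that adds a branch to N-glycans, and Tmem163 encodes a zinc transporter. Acmsd encodes a decarboxylase of the pathway from tryptophan to NAD, and Ccnt2 encodes cyclin T2, a partner of CDK9 in the elongation factor P-TEFb. Nckap5 encodes a protein named for its association with NCK.

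The start regions of 3 of these genes are shown because they differ in their distance from the paternal peaks. The 250 bases before the RefSeq start (GRCm38.p6, the assembly of mm10) are given 5′ to 3′ on the strand of the gene, and each CG dinucleotide, which reads the same on both strands, is in capitals. Gpr39 (chr1:125676746-125676995) has a paternal peak over its start in both genotypes.
Gpr39: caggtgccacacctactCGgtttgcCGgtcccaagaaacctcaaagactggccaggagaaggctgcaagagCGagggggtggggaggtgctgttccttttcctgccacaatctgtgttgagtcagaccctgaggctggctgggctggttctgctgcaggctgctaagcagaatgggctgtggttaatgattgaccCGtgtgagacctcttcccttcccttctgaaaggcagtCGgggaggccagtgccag
Mgat5 (chr1:127204736-127204985) has no peak over its start and a long row of paternal peaks before it.
Mgat5: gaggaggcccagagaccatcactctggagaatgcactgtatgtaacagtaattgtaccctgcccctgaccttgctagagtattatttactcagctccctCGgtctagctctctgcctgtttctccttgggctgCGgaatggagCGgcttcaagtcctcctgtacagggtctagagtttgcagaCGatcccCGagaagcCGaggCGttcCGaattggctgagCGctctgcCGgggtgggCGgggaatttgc
Ccnt2 (chr1:127773914-127774163) has no peak in any list.
Ccnt2: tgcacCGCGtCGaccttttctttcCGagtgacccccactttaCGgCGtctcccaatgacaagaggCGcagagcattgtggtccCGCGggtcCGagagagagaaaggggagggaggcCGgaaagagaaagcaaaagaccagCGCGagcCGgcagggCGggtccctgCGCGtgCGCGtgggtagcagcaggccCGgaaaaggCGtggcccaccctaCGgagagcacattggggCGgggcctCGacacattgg
These windows hold 5, 11 and 24 CG dinucleotides. Of 32619 promoter windows of the same length, 55.9% hold at least 5, 35.8% at least 11 and 12.1% at least 24, with a median of 6. The windows of Lypd1, Nckap5 and Acmsd hold 8, 12 and 1.

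The central 200 bases of the peak with the highest fold of the domain in each paternal list are shown next, on the plus strand and with CG in capitals. Both peaks were assigned to Mgat5 and lie before its start. The Ezh2m+/p+ peak is centred at chr1:127083701-127083900.
Ezh2m+/p+ paternal: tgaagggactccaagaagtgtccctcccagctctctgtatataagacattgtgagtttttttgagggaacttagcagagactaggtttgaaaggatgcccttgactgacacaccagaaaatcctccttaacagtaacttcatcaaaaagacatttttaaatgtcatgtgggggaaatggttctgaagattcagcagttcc
The Ezh2m-/p+ peak is centred at chr1:127191201-127191400.
Ezh2m-/p+ paternal: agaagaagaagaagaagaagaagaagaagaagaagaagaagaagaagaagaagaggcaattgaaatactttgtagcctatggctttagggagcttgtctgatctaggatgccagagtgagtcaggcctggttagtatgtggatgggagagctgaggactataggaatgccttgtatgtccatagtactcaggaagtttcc
Neither centre holds a CG dinucleotide. The Ezh2m-/p+ centre opens with a run of AGA, a simple repeat, and the part of such repeats in the folds was not tested.

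Peaks of the 7 genes in any list spanned 2082.6 kb, from 125652201 to 127734799. In this span the Ezh2m+/p+ zygotes had 79 paternal peaks, or 37.9 per Mb, and the Ezh2m-/p+ zygotes had 97, or 46.6 per Mb. The rest of chromosome 1 had 12.3 and 13.0 paternal peaks per Mb. Paternal peaks covered 10.3% of the span in Ezh2m+/p+ zygotes and 16.2% in Ezh2m-/p+, against 3.61% and 5.27% of the rest of the chromosome. Maternal peaks covered 0.346% of the span in Ezh2m+/p+ zygotes, below the 0.708% of the rest of the chromosome, and 1.66% in Ezh2m-/p+ zygotes, above its 1.26%. Over the whole span the high cover was therefore on the paternal side, as the choice of the genes would give. The body of Mgat5 was an exception, as given below.

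Of the 7 genes, 5 had at least 1 paternal peak in Ezh2m+/p+ zygotes, where 20.3% of protein-coding genes had one. In Ezh2m-/p+ zygotes the paternal list named 4 of the 7, beside 23.8% of all genes. At least 10 paternal peaks were assigned to 4 of the 7 genes in each genotype, beside 1.23% of all genes in Ezh2m+/p+ zygotes and 1.64% in Ezh2m-/p+. A maternal peak was assigned to 2 of the 7 in Ezh2m+/p+ (14.6% of all genes) and to 3 of the 7 in Ezh2m-/p+ zygotes (21.1% of all genes). Nothing is read from the paternal shares, since they chose the genes.

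**Figure D1:**
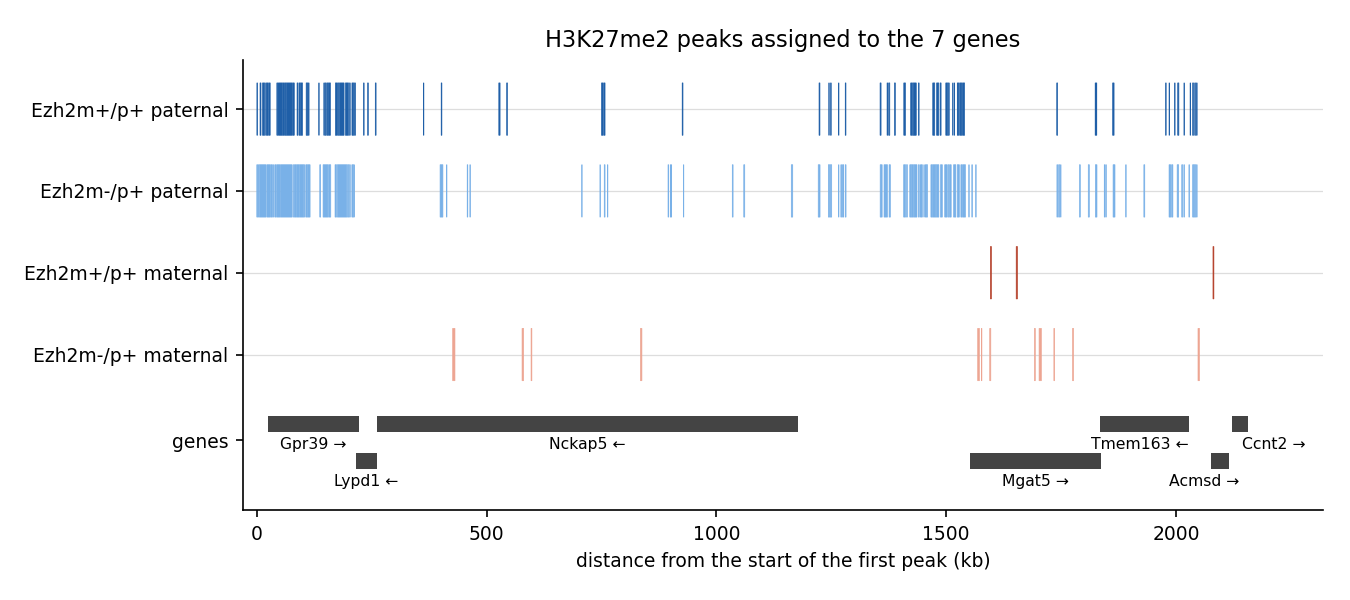
Position of the 191 peaks of the 4 lists (bars, to scale but for a thin outline that keeps short peaks visible), and of the 7 genes with their direction of transcription, by distance in kb from the start of the first peak. Paternal peaks crowd over Gpr39 and before Mgat5 in both genotypes, and the maternal peaks lie elsewhere.

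The paternal peaks were not spread evenly over the span. When neighbouring peaks were joined across gaps of at most 50 kb, each paternal list gave 10 separate runs. The run at Gpr39 held 34 peaks over 259.4 kb in Ezh2m+/p+ zygotes and 25 peaks over 212.4 kb in Ezh2m-/p+ zygotes, and peaks covered 43.2% and 70.0% of it. The run at the start of Mgat5 held 20 peaks over 184.0 kb and 28 peaks over 209.0 kb, with 30.8% and 48.2% covered. It stopped before the gene in Ezh2m+/p+ zygotes and reached into its first intron in Ezh2m-/p+. By number of peaks, the run at Gpr39 was in place 9 of the 302 runs of chromosome 1 in Ezh2m+/p+ zygotes and 14 of 341 in Ezh2m-/p+ zygotes. The run at the start of Mgat5 was in place 14 and 10. Runs with more peaks thus exist on the same chromosome. Between these blocks, the 917.2 kb of Nckap5 were covered to only 1.70% and 2.90%. This is below the 3.61% and 5.27% of chromosome 1 outside the span. In bins of 100 kb the cover was highest in the first bin, at 58.4% in Ezh2m+/p+ zygotes and 84.8% in Ezh2m-/p+, followed by the second, at 41.0% and 56.8%. Apart from these, it was highest in the bin that starts 1400 kb after the first peak, at 28.6% and 55.4%.

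**Figure D2:**
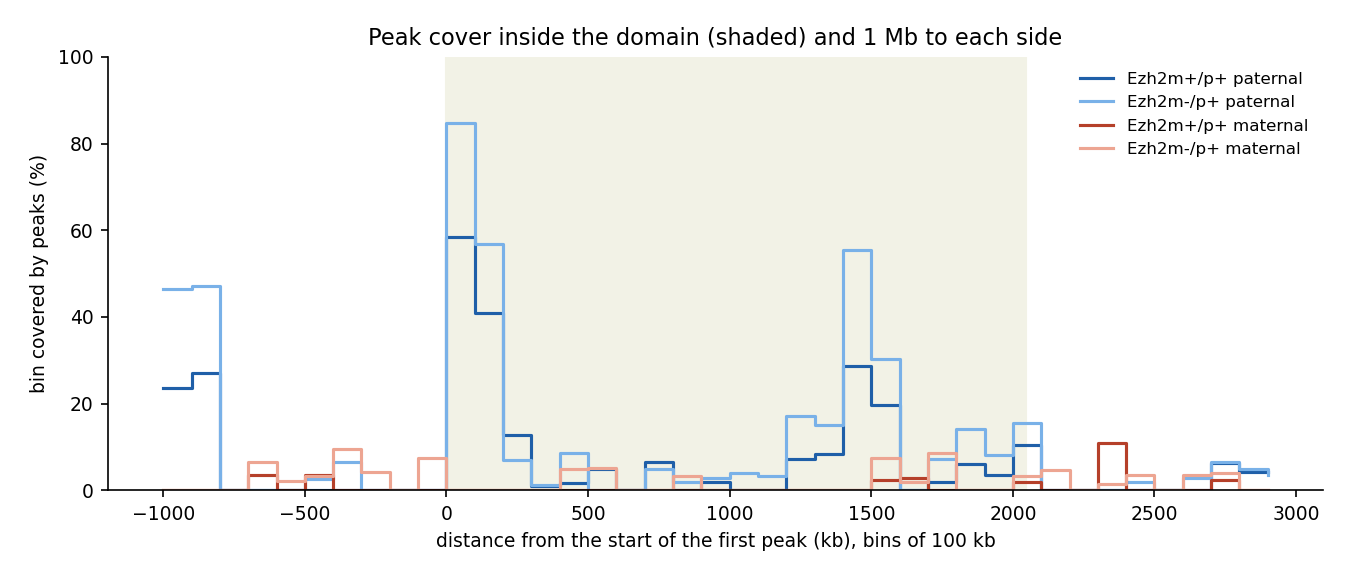
Share of each 100 kb bin covered by peaks (%) in the 4 lists, against the distance in kb from the start of the first peak. The span from the first to the last paternal peak is shaded, and the 2 high blocks in it are those at Gpr39 and at the start of Mgat5.

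Gpr39 extends from 125676995 to 125873862 on the plus strand. It had 31 paternal peaks in Ezh2m+/p+, 25 in Ezh2m-/p+ zygotes, and no maternal peak in either genotype. Paternal peaks covered 47.7% of its body in Ezh2m+/p+ zygotes and 64.8% in Ezh2m-/p+, the highest of the 7 genes in both lists. The Ezh2m-/p+ list thus had fewer peaks but more covered sequence. Their median length was 2599 bp in Ezh2m+/p+ zygotes and 3599 bp in Ezh2m-/p+ zygotes. In Ezh2m+/p+ 24 of the 31 peaks, and in Ezh2m-/p+ 20 of the 25, were annotated to the first intron, the only intron of the transcripts named.

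The longest peak of the domain in each paternal list lay in this intron. It spanned 12999 bp in Ezh2m+/p+ zygotes (125716401 to 125729399, fold 21.4) and 24999 bp in Ezh2m-/p+ zygotes (125704401 to 125729399, fold 20.3). Both peaks end at the same base, and the longer one overlaps 4 peaks of the Ezh2m+/p+ list. The peak of highest fold assigned to Gpr39 in Ezh2m+/p+ zygotes was instead outside the gene, 15.6 kb before its start (125659201 to 125661399, fold 175). In Ezh2m-/p+ zygotes it was in the intron (125734601 to 125738599, fold 252), where the Ezh2m+/p+ list has no overlapping peak. The start of Gpr39 was covered by a peak of fold 22.6 in Ezh2m+/p+ zygotes and of fold 13.2 in Ezh2m-/p+. Taking for each gene its outermost annotated start, it was the only start of the 7 genes under a peak in any list. Peaks also lay over inner starts named in the lists, of Gpr39 in both paternal lists (125831801 to 125842199 and 125827401 to 125848199), of Tmem163 in the Ezh2m-/p+ paternal list (127499401 to 127500799) and of Mgat5 in the Ezh2m+/p+ maternal list (127304601 to 127307399).

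Lypd1, on the minus strand, overlaps the end of Gpr39 and reaches 125913101. Its 3 paternal peaks were all in the Ezh2m+/p+ list, and no other list had any. They lay at 125884401 to 125885799 (fold 5.27), 125893201 to 125894999 (fold 48.1) and 125910001 to 125911799 (fold 84.3). Together they covered 11.7% of its extent in the lists, from 125872284 to 125911387. The last lies 1.30 kb from the outermost start of the gene and covers the start, at 125911387, of the Lypd1 transcript that the list names. In Ezh2m-/p+ zygotes the nearest paternal peak was 48.5 kb from the outermost start, and the dense block stopped before the end of Gpr39.

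Nckap5, also on the minus strand, is the longest of the 7 genes, from 125913620 to 126830799. It had 13 paternal peaks in Ezh2m+/p+ zygotes and 24 in Ezh2m-/p+, of which 7 and 15 lay in its body and the others before its start. Maternal peaks numbered 0 and 4. Gaps between its paternal peaks reached 296.0 kb in Ezh2m+/p+ zygotes and 242.2 kb in Ezh2m-/p+ zygotes. The highest fold was 132 in Ezh2m+/p+ (126178801 to 126181599) and 370.4 in Ezh2m-/p+ zygotes (126051001 to 126057199). These 2 peaks are in different introns. The second overlaps an Ezh2m+/p+ peak at 126053401 to 126054999 with a fold of 10.5. No peak lay over the start of Nckap5, and the nearest paternal peak was 44.8 kb away in Ezh2m+/p+ zygotes and 12.4 kb away in Ezh2m-/p+.

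Mgat5 extends from 127205015 to 127488336 on the plus strand. It had 20 paternal peaks in Ezh2m+/p+ zygotes and 30 in Ezh2m-/p+, and 2 and 6 maternal peaks. Nearly all paternal peaks lay before the gene, 19 of 20 in Ezh2m+/p+ zygotes and 25 of 30 in Ezh2m-/p+ zygotes. The 374.2 kb between the start of Nckap5 and that of Mgat5 were covered by paternal peaks to 17.0% and 30.8%, whereas Mgat5 itself was covered to 1.72% and 5.67% over its extent in the lists, which ends at 127483704, and to 1.69% and 5.57% up to 127488336. This split of the region into segments was made after the peaks were seen. Maternal peaks covered 1.87% and 6.46% of the extent of Mgat5 in the lists, more than paternal peaks did in either genotype. The peak nearest to the start of Mgat5 was 12.6 kb away in Ezh2m+/p+ (fold 27.1) and 2.62 kb away in Ezh2m-/p+ zygotes (fold 63.0).

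The Mgat5 peak of highest fold in Ezh2m+/p+ zygotes was at 127080401 to 127087199 (fold 241). It overlaps 2 Ezh2m-/p+ peaks, with folds of 315 and 22.0. The Mgat5 peak of highest fold in Ezh2m-/p+ zygotes was at 127188201 to 127194399 (fold 536). It starts at the same base as an Ezh2m+/p+ peak that ends at 127192399 and has a fold of 27.1. These are the peaks whose centres are printed above.

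Tmem163 lies on the minus strand from 127486546 to 127679548. It had 12 paternal peaks in Ezh2m+/p+ zygotes and 18 in Ezh2m-/p+, and 0 and 2 maternal peaks. Paternal peaks covered 5.39% and 12.0% of its body. Not all peaks assigned to it are in the gene. In Ezh2m+/p+ zygotes 6 lay in its body, 4 before its start and 2 beyond its end, where Mgat5 lies. The highest fold was 132 in Ezh2m+/p+ (127514401 to 127517599, intron 5 of 8) and 173 in Ezh2m-/p+ zygotes (127688401 to 127691199, before the start). The latter starts at the same base as an Ezh2m+/p+ peak with a fold of 120.4.

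Acmsd (127729413 to 127767978) had no paternal peak. Its single peak was maternal and from Ezh2m+/p+ zygotes, at 127732801 to 127734799 in the first intron, with a fold of 5.19 just above the limit of the lists. Ccnt2 (127774164 to 127808061) had no peak in any of the 4 lists. The paternal peak nearest to its start was 75.8 kb away in both genotypes.

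**Figure D3:**
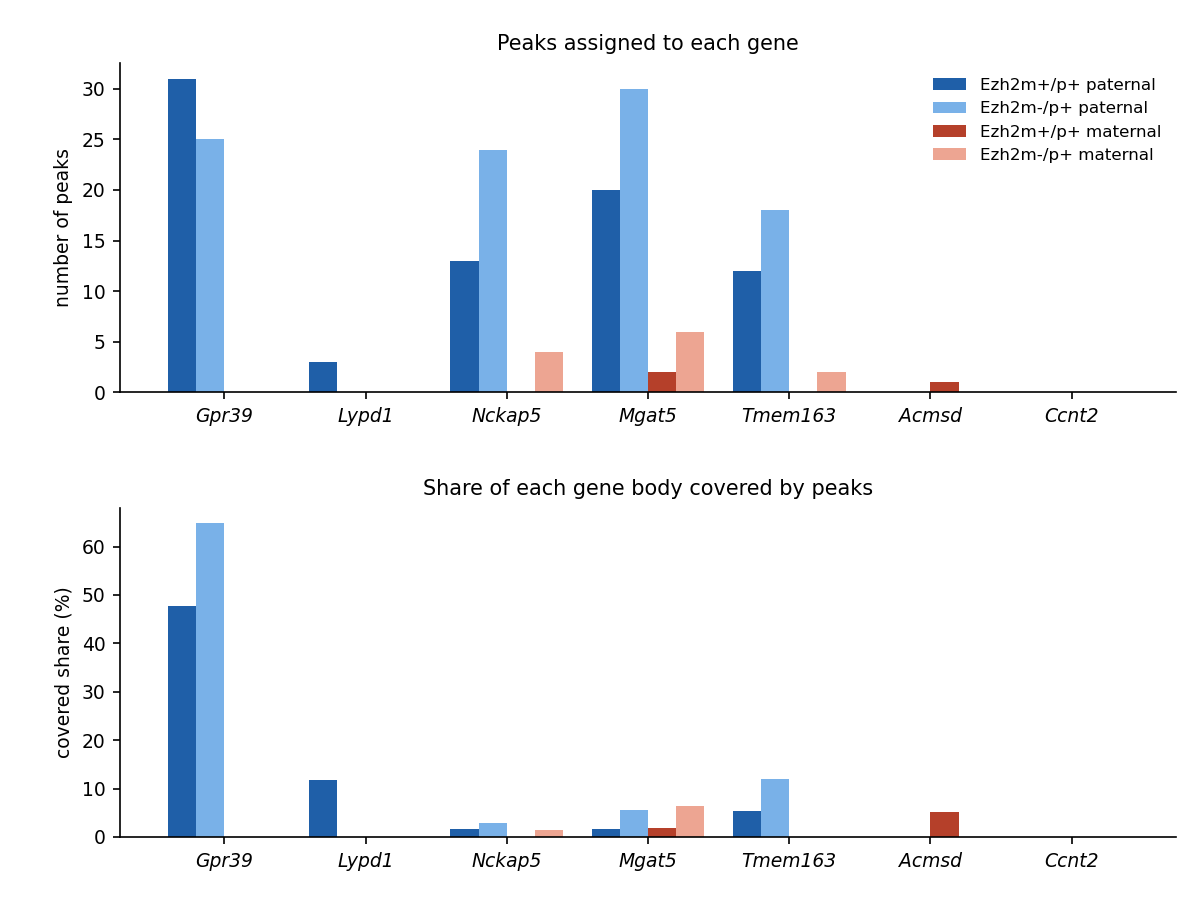
Number of peaks assigned to each of the 7 genes (top) and share of the body of each gene covered by peaks (%, bottom) in the 4 lists. Gpr39 had fewer paternal peaks in Ezh2m-/p+ (25) than in Ezh2m+/p+ zygotes (31) but more covered sequence, while Nckap5, Mgat5 and Tmem163 had more peaks and more cover in Ezh2m-/p+ zygotes.

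The outer edges of the paternal domain were nearly the same in both genotypes. The first paternal peak started at 125652401 in Ezh2m+/p+ zygotes and at 125652201 in Ezh2m-/p+, a difference of 200 bp, which is 1 window of the peak caller. The last paternal peak ran from 127696801 to 127698399 in both lists, with a fold of 36.1 in Ezh2m+/p+ zygotes and 94.6 in Ezh2m-/p+. Towards the centromere, the next paternal peak was 827.8 kb away in Ezh2m+/p+ zygotes and 366.0 kb away in Ezh2m-/p+, and both were assigned to Actr3. On the other side it was 687.0 kb away, near Dars, and 452.0 kb away, near R3hdm1. Inner edges differed more. At the Gpr39 block the last paternal peak ended at 125911799 in Ezh2m+/p+ zygotes and at 125864599 in Ezh2m-/p+, and the block at the start of Mgat5 ended at 127192399, before the gene, and at 127217599, inside it.

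Spacing was measured from the end of a peak to the start of the next. Its median was 4.50 kb between the 79 paternal peaks of Ezh2m+/p+ and 3.20 kb between the 97 of Ezh2m-/p+ zygotes. The remaining peaks of chromosome 1 had a median of 3.60 kb in both lists, and the peaks of all chromosomes had medians of 10.6 and 9.80 kb. The median gap in the domain was thus near that of the rest of this chromosome, longer in Ezh2m+/p+ zygotes and shorter in Ezh2m-/p+ zygotes, and below that of the whole lists. Gaps under 2 kb made up 34.6% and 40.6% of those in the domain and 31.9% and 36.9% of those on the rest of the chromosome. In Ezh2m+/p+ zygotes gaps of 2 to 10 kb were fewer in the domain (26.9% against 40.0%) and gaps of 10 to 50 kb more frequent (26.9% against 15.7%). In Ezh2m-/p+ zygotes these classes held 34.4% against 33.3%, and 15.6% against 16.6%. Gaps of 50 kb or more numbered 9 in each genotype. The shortest gap was 801 bp in both lists, a limit set by the peak caller, which joins enriched windows up to 600 bp apart.

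**Figure D4:**
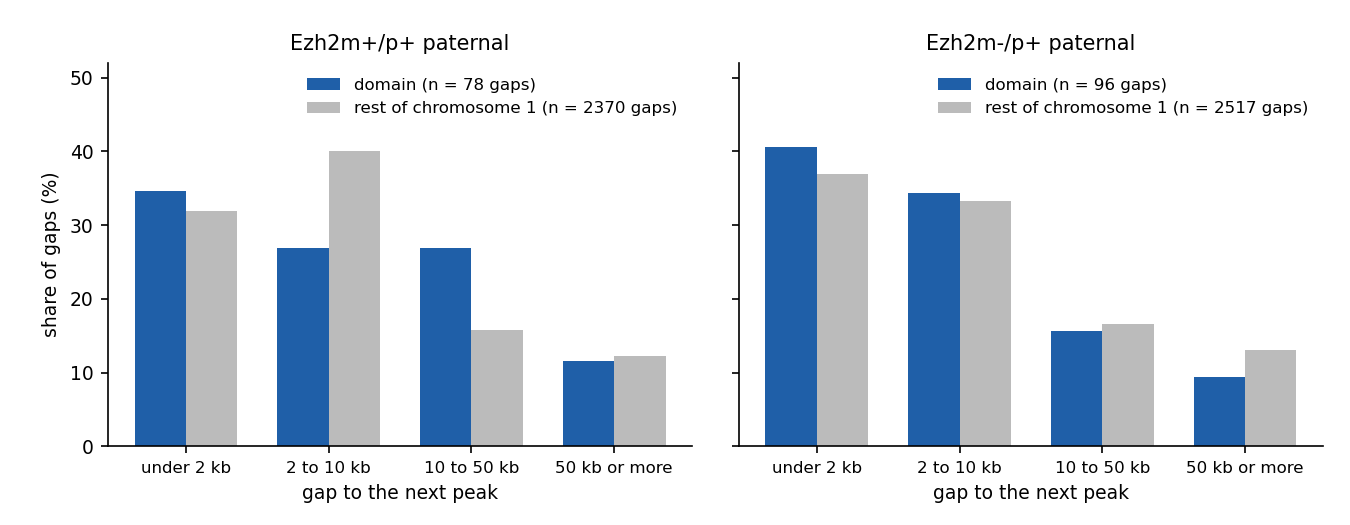
Share of gaps (%) in 4 size classes for the paternal peaks of the domain (blue) and of the rest of chromosome 1 (grey), in Ezh2m+/p+ (left) and Ezh2m-/p+ zygotes (right). In the domain, 34.6% and 40.6% of the gaps were under 2 kb.

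Of the 79 Ezh2m+/p+ peaks, 64 (81.0%) overlapped an Ezh2m-/p+ paternal peak by at least 1 bp, beside 66.1% of all Ezh2m+/p+ paternal peaks. Of the 97 Ezh2m-/p+ peaks, 51 (52.6%) overlapped an Ezh2m+/p+ paternal peak, beside 45.7% of all. A 1 bp overlap depends on how densely a region is covered, the members were chosen for dense cover, and nothing is read from their higher shares. When each peak of a pair had to share 50% of its length, the shares fell to 36.7% of the Ezh2m+/p+ members, beside 31.4% of all, and to 29.9% of the Ezh2m-/p+ members, beside 24.6% of all. Shares of the Ezh2m+/p+ peaks with an overlap were 29 of 31 for Gpr39, 18 of 20 for Mgat5, 9 of 12 for Tmem163, 8 of 13 for Nckap5 and 0 of 3 for Lypd1. In the other direction the shares were lower, at 18 of 25 for Gpr39, 17 of 30 for Mgat5, 8 of 18 for Tmem163 and 8 of 24 for Nckap5.

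In base pairs, Ezh2m+/p+ paternal peaks covered 213.5 kb and Ezh2m-/p+ paternal peaks 338.3 kb. They shared 168.3 kb, which is 78.8% of the first and 49.8% of the second, beside 66.1% and 42.4% of the cover of all paternal peaks. In 69 overlapping pairs, the Ezh2m-/p+ peak was the longer in 56, the shorter in 11 and of equal length in 2, with long peaks counted once for each peak they overlap. In the 35 pairs of 1 peak with 1 peak these were 28, 5 and 2. Over all paternal peaks the Ezh2m-/p+ list was also the longer, with a median length of 1999 against 1799 bp. The 15 Ezh2m+/p+ peaks without a match had a median length of 1599 bp, against 2199 bp for the 64 with one. In Ezh2m-/p+ zygotes the 46 unmatched peaks had a median of 1499 bp, and the 51 matched peaks 3799 bp. A longer peak is more readily matched, so nothing is read from the lengths, and over all paternal peaks the medians were 1399 against 1999 bp and 1599 against 2799 bp. Median folds of the unmatched peaks were higher than those of the matched peaks, at 48.1 against 33.1 in Ezh2m+/p+ and 63.0 against 21.7 in the Ezh2m-/p+ list. Over all paternal peaks they were 36.1 in both sets of Ezh2m+/p+, and 19.7 against 14.3 in the Ezh2m-/p+ list.

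Folds are the authors' ratios of H3K27me2 to input reads. Their median over the members was 36.1 in Ezh2m+/p+ zygotes and 23.0 in Ezh2m-/p+ paternal peaks, with ranges of 5.27 to 241 and 5.42 to 536. The remaining paternal peaks of chromosome 1 had medians of 36.1 and 16.7. Folds over 100 were found for 14 of 79 members (17.7%) and 17 of 97 (17.5%), beside 12.5% and 12.6% on the rest of the chromosome and 7.56% and 11.7% over all paternal peaks. The lowest folds lie just above the limit of 5 that the authors set, and peaks below it were not listed.

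Many folds recurred. The 79 Ezh2m+/p+ members had 37 different folds, of which 36.1 occurred 11 times and 48.1 occurred 6 times. The 97 Ezh2m-/p+ members had 53, of which 78.8 occurred 9 times. Above a fold of 30, 42 of 45 were whole multiples of 12.0 (within 0.01 of a multiple). In Ezh2m-/p+ zygotes 35 of 40 were whole multiples of 15.8. The same held for 92.6% and 88.2% of all paternal peaks over this fold. At or below it, 1 of 34 and 3 of 57 members were such multiples. Members with a fold over 30 were shorter than the others, with a median length of 1999 against 2499 bp in Ezh2m+/p+ zygotes and 1699 against 2999 bp in Ezh2m-/p+ zygotes. The lists give no read numbers, so how many reads stand behind a fold is unknown, peaks of equal fold cannot be ranked, and folds of different lists are not on a common scale. For the same reason, a peak named here for its highest fold is not read as the place with the most H3K27me2. Across the 69 overlapping pairs, which share peaks with each other, the Spearman correlation of the folds was 0.10 and that of the lengths 0.42.

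**Figure D5:**
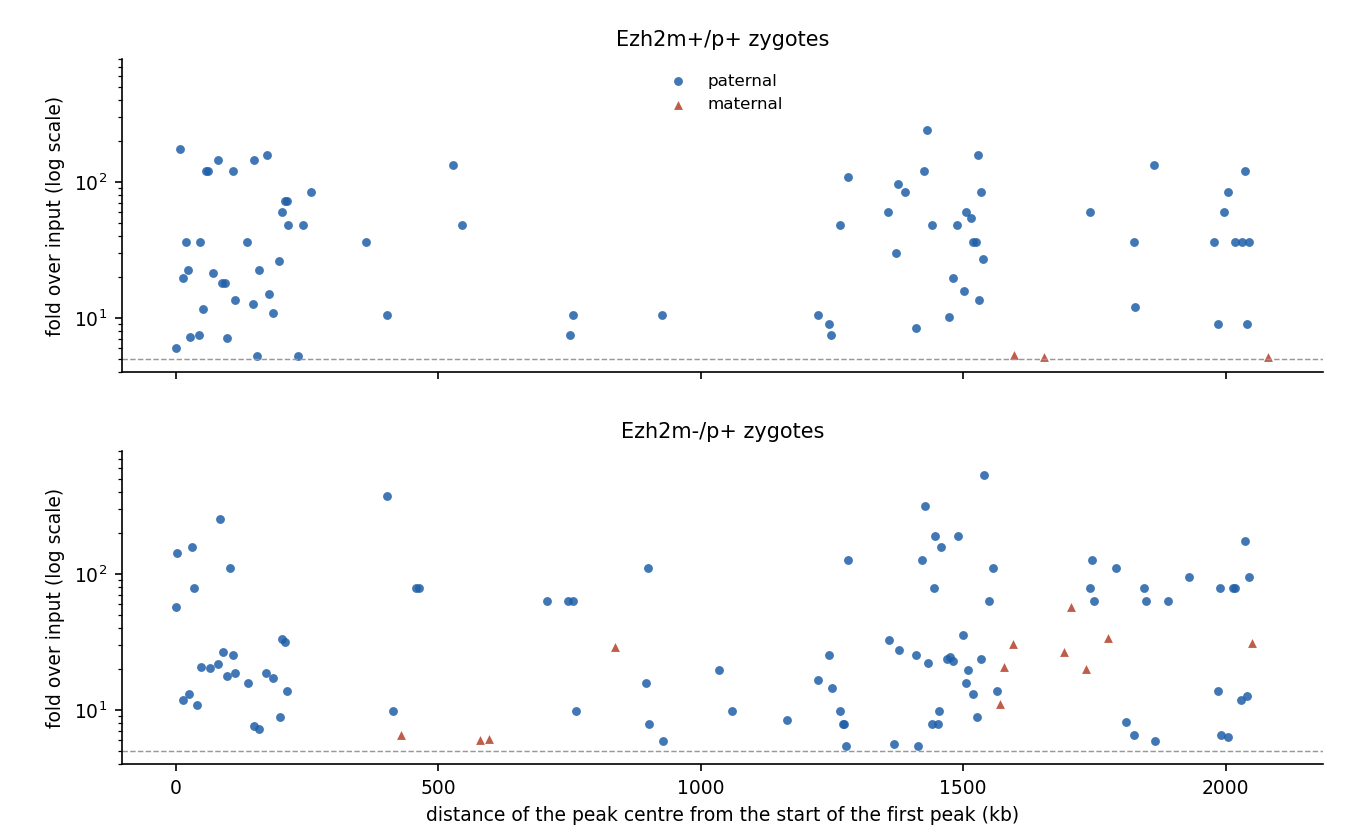
Fold over input (log axis) of each member peak against the distance of its centre from the first peak (kb), for paternal (circles) and maternal peaks (triangles) of Ezh2m+/p+ (top) and Ezh2m-/p+ zygotes (bottom). The dashed line is the limit of 5. Many paternal folds recur at the same level, and the 3 Ezh2m+/p+ maternal peaks lie between 5.19 and 5.36.

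The maternal peaks lay in other places than the paternal peaks. None of the 3 Ezh2m+/p+ and none of the 12 Ezh2m-/p+ maternal peaks overlapped a paternal peak of either genotype. Overlap with a paternal peak of the same genotype was rare in the whole lists too, at 0.418% of Ezh2m+/p+ and 0.416% of Ezh2m-/p+ maternal peaks, so the count in the domain is what the lists give in general. The longest stretch of the domain without a paternal peak in both genotypes, 175.2 kb from 127217600 to 127392800 in the body of Mgat5, held both maternal Mgat5 peaks of Ezh2m+/p+ zygotes and all 6 of Ezh2m-/p+.

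In Ezh2m+/p+ zygotes the maternal Mgat5 peaks lay at 127248401 to 127250799 (fold 5.36) and 127304601 to 127307399 (fold 5.19). The Ezh2m-/p+ list had 3 peaks in the first intron, at 127220801 to 127224599 (fold 11.1), 127228801 to 127229999 (fold 20.7) and 127247001 to 127249399 (fold 30.6). The last of these overlaps the first Ezh2m+/p+ peak, and it is the only overlap between the maternal member peaks of the genotypes. The other 3 lay at 127344201 to 127346199 (fold 26.8), 127354401 to 127359399 (fold 57.4, the highest maternal fold of the domain) and 127386601 to 127387999 (fold 19.9).

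In Nckap5 the 4 maternal peaks of Ezh2m-/p+ zygotes had folds of 6.60 (126078401 to 126083399), 6.02 (126229401 to 126232799), 6.12 (126249001 to 126250799) and 29.1 (126487001 to 126490199). They were between 12.4 and 112.4 kb from the nearest paternal peak of the same genotype. The 2 maternal peaks assigned to Tmem163 were at 127427201 to 127429399 (fold 33.7) inside Mgat5, and at 127700201 to 127703399 (fold 31.4). The latter begins 1.80 kb after the last paternal peak of the domain. A further Ezh2m-/p+ maternal peak, assigned to Slc35f5, ended 23.2 kb before the first paternal peak. The paternal domain itself held 11 Ezh2m-/p+ maternal peaks, or 5.38 per Mb, against 4.84 per Mb on the rest of chromosome 1. In Ezh2m+/p+ zygotes the nearest maternal peaks outside the paternal domain were 487.6 kb before and 34.4 kb after it.

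By the annotation of the lists, 31 of 79 Ezh2m+/p+ and 37 of 97 Ezh2m-/p+ paternal members were distal intergenic (39.2% and 38.1%), beside 40.2% and 40.7% of all paternal peaks. First introns made up 31.6% and 24.7% of the members and 9.68% and 9.41% of all peaks, which is mostly the single intron of Gpr39. Peaks called promoter by the annotation, at most 3 kb from a start, were 4 and 7 members (5.06% and 7.22%), beside 17.3% and 16.9% of all.

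The sequence of the paternal member peaks had a GC content of 44.6% in Ezh2m+/p+ zygotes and 44.5% in Ezh2m-/p+. Other paternal peaks of chromosome 1 had 43.8% and 43.0%, and the whole chromosome 41.1%. Within the domain, the sequence between the paternal peaks had 43.3%. CG dinucleotides in the member peaks numbered 7.41 and 7.53 per kb, near the 7.70 per kb of the whole chromosome and below the 9.23 and 8.72 per kb of its other paternal peaks and the 8.33 per kb between the member peaks. Repeat-masked bases made up 25.5% and 25.0% of the member peaks, 23.6% and 24.4% of other paternal peaks of the chromosome, 28.3% of the sequence between them and 34.6% of chromosome 1. Neighbouring peaks share this sequence context, and reads can be assigned to a parent only over variants, which were not examined here.

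Beyond the domain, 12 neighbouring genes were examined. Paternal peaks were assigned to 4 of them in Ezh2m+/p+ zygotes and to 7 in Ezh2m-/p+, with 47 and 72 peaks, where 20.3% and 23.8% of all protein-coding genes had one. Most belonged to Dpp10 (23 and 31), which encodes a subunit of potassium channels, and to Actr3 (12 and 23), which encodes an actin nucleator. The chemokine receptor gene Cxcr4 had 7 and 12. Slc35f5, Map3k19, Rab3gap1, Zranb3 and Ubxn4 had no paternal peak in either genotype, and of these Zranb3 had 3 and 2 maternal peaks, while Slc35f5 had 3 and Map3k19 had 1 in Ezh2m-/p+ zygotes only. In the 1 Mb before the domain 17 and 32 paternal peaks were listed, the nearest of them 366.0 kb away, and in the 1 Mb after it 11 and 15.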

How the data were processed

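H3K27me2 was profiled by ULI-NChIP-seq in zygotes of 2 genotypes, with 1 H3K27me2 library and 1 input library each. The authors used Trimmomatic 0.38 for trimming and Bowtie2 for alignment to mm10, removed duplicates with Picard and split unique alignments of high quality into C57BL/6 (maternal) and PWK (paternal) with SNPsplit. Peaks over input came from SICER (windows of 200 bp, gap of 600 bp). Those of about 1 kb or longer whose fold exceeded 5 were listed, with ChIPseeker annotation. The deposited lists give each peak with its fold, the ratio of H3K27me2 to input reads, and no read counts, so they do not show the depth per parental genome. By the study's methods both Ezh2m+/p+ libraries, H3K27me2 and input, were sequenced more deeply than the Ezh2m-/p+ libraries, and the part of depth in any difference was not tested. A deposited coverage table was not used, so the depth per parental genome was not examined.

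Peaks were taken as listed. GENCODE vM21 gives each of the 20 transcripts named for the members the coordinates of the lists. A gene body runs from the lowest start to the highest end of the transcripts that the lists name (for Ccnt2, of GENCODE). Overlapping peaks were merged for cover, and overlaps needed 1 bp. Peaks are assigned to the gene with the nearest start, so some lie outside it. Named peaks are, per gene and list, the one of highest fold, the longest of the domain, its first and last, and every maternal peak, besides peaks that overlap these and the 3 Lypd1 peaks. Other splits of the region and the examples were chosen after the peaks were seen. The members and gene lists were chosen with earlier results of these data known. With 1 library per genotype no test was made. Interval functions were tested on simulated data. Python 3.11.15 was used with pandas 2.3.3, scipy 1.17.1 and pysam 0.24.0.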

Additional observations from a re-analysis of the deposited data

How the results depend on the processing

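The numbers and cover of the paternal peaks moved with the limits set on the lists. With a length over 2000 bp, 39 of 79 Ezh2m+/p+ and 53 of 97 Ezh2m-/p+ paternal peaks were left. Of the peaks of any length, 46 and 56 overlapped the body of a member gene. With a fold over 10 none (0) of the 3 Ezh2m+/p+ maternal peaks was left. The share of the 7 gene bodies covered by paternal peaks was 7.63% in Ezh2m+/p+ zygotes and 11.4% in Ezh2m-/p+, 6.54% and 8.78% with a fold over 10, and 5.58% and 8.82% with a length over 2000 bp. The share of the domain fell likewise, to 8.90% and 13.0% with a fold over 10, and to 7.35% and 13.2% with a length over 2000 bp. Joining peaks across gaps of at most 25 kb gave 16 runs in Ezh2m-/p+ zygotes in place of 10. A reciprocal overlap of 50% lowered the shares of overlapping member peaks to 36.7% and 29.9% (31.4% and 24.6% of all paternal peaks), and a fold over 10 in both lists lowered the Ezh2m+/p+ share to 62.7% (45.3% of all). With a fold over 10 and with a length over 2000 bp, the Ezh2m-/p+ list still had more paternal member peaks, more cover and a smaller median gap, although folds are on no common scale and a fold of 10 is not the same limit in both lists. The whole Ezh2m-/p+ paternal list was larger too, with 22823 against 17863 peaks and 66769.6 against 42778.9 kb covered. With a fold over 10 it held 15575 against 14985 peaks. Nothing particular to the members is read from this direction. Measuring the domain only from its first to its last paternal peak, an alternative chosen after seeing the data, moved its cover to 10.4% and 16.5%. No paired analysis was possible because each genotype had 1 library and no result comes from a test. Depth limits all absences here, since a place without a peak may hold too few reads over variants between the strains.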

Other observations

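Relatives by function of Gpr39, Mgat5, Lypd1, Acmsd and Ccnt2 were looked up in the same lists. None was examined for Nckap5 and Tmem163. Of 31 relatives outside the domain, 5 (16.1%) had a paternal peak in Ezh2m+/p+ zygotes and 4 (12.9%) in Ezh2m-/p+, below the 20.3% and 23.8% of all protein-coding genes. A maternal peak was found for 5 (16.1%) and 7 (22.6%), near the 14.6% and 21.1% of all genes. The relatives named below are therefore examples, chosen after their values were seen. Mgat5b, the relative of Mgat5 with the same kind of transferase activity, had 5 paternal peaks in each genotype, with highest folds of 36.1 in Ezh2m+/p+ zygotes and 205 in Ezh2m-/p+. Among the relatives of Gpr39, the neurotensin receptor gene Ntsr2 had 3 and 1 paternal peaks, whereas the neuromedin receptor gene Nmur2 had 7 and 14 maternal peaks and no paternal peak. Kmo, an enzyme gene of the tryptophan pathway to which Acmsd belongs, had 6 and 2 paternal peaks. Beside Ccnt2, 5 other genes of P-TEFb and its inhibitors were examined. Their sole peak was 1 paternal peak of Larp7 in Ezh2m-/p+ zygotes, with a fold of 27.6.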
